A study of Mus musculus with 18 samples.

Results

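Aminoacyl-tRNA synthetases join each amino acid to its tRNA, so that the ribosome receives the amino acid a codon calls for. Mammalian cells use separate nuclear genes for most enzymes of the cytosol and of the mitochondria, the latter written with the suffix 2, while *Gars* and *Kars*, the glycine and lysine enzymes, serve both compartments from a single gene each. Several cytosolic synthetase genes are known targets of ATF4, the transcription factor of the integrated stress response and of amino acid shortage, and inherited variants of some of them cause disease of peripheral nerves. The genes examined were chosen by symbol, as the 20 cytosolic and 16 mitochondrial synthetases of a given list, which makes 36 of the 54752 genes in the RNA data. Each of the 36 symbols matched 1 gene there and also had values among the 22523 genes of the footprint data.

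The study performed RNA sequencing and ribosome profiling, which sequences the stretches of mRNA covered by ribosomes (footprints), on the cerebellum of mice aged 3 weeks, with 3 libraries for each of 3 genotypes and each assay. It asks what the loss of GTPBP1 or of GTPBP2, a pair of related GTPases that act when ribosomes pause, does to gene expression in this tissue. All 3 genotypes, the B6J wild type controls included, carry the C57BL/6J mutation of *n-Tr20*, which lowers the amount of the tRNA that reads the arginine codon AGA. In B6J.*Gtpbp1*-/- mice, PGK-Neo takes the place of exon 4 and of part of exon 3 in *Gtpbp1* and the line was made congenic by backcrossing, and B6J-*Gtpbp2*-/- mice carry nmf205, an ENU-induced null point mutation of *Gtpbp2*. Both alleles were present throughout the animal, and mice of both sexes were used.

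The RNA libraries held 49090286, 50301156 and 52114145 estimated counts in B6J, 44242824, 49293902 and 37794333 in B6J.*Gtpbp1*-/- and 46026737, 50878561 and 51979454 in B6J-*Gtpbp2*-/- mice, in the order of replicates 1 to 3 that is kept throughout. The footprint libraries held 4428395, 4489970 and 6523974 footprints on coding sequence in B6J, 7054063, 8612441 and 5944024 in B6J.*Gtpbp1*-/- and 6281637, 3630823 and 10442573 in B6J-*Gtpbp2*-/- mice. RNA values are given as CPM, counts scaled to a common library size after TMM normalization, which corrects for the composition of the libraries, and footprint values as footprint CPM on the same principle. Levels of different genes are compared only per length, as TPM, the abundance kallisto gives after correction for transcript length, for RNA and as footprint CPM per kb of coding sequence (footprint density) for footprints. A gene was called where the quasi-likelihood test of edgeR, fitted over all genes, gave an adjusted p of at most 0.05 between a pair of genotypes with n = 3 each, and log2 fold changes are given ± SE. Both mutants were compared with the same B6J libraries, so the 2 sets of fold changes share their controls.

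The targeted genes were read first. *Gtpbp1* had 71.0, 77.8 and 66.7 RNA CPM in B6J, 44.0, 41.7 and 43.9 in B6J.*Gtpbp1*-/- and 58.6, 72.1 and 65.7 in B6J-*Gtpbp2*-/-, and the 3 B6J.*Gtpbp1*-/- libraries lay below all others. Its RNA fell by 0.73 on the log2 scale in B6J.*Gtpbp1*-/- mice (SE 0.082, edgeR adjusted p = 5.94e-05). With an offset for transcript length the fold change was -0.31 and the adjusted p 0.0819, the highest in a range from 2.76e-13 to 0.0819 over the alternatives. *Gtpbp1* footprints stood at 73.6, 117 and 84.8 CPM in B6J, 32.0, 25.5 and 35.6 in B6J.*Gtpbp1*-/- and 79.3, 66.8 and 62.1 in B6J-*Gtpbp2*-/-. These too were lowest in the 3 B6J.*Gtpbp1*-/- libraries, with a log2 fold change of -1.56 ± 0.23 (edgeR adjusted p = 0.00676).

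*Gtpbp2* had 85.9, 74.0 and 88.1 RNA CPM in B6J, 109, 100.5 and 104 in B6J.*Gtpbp1*-/- and 65.5, 75.4 and 72.7 in B6J-*Gtpbp2*-/-, so RNA of the gene was present in the mice that carry its point mutation. Its log2 fold change of -0.22 ± 0.092 there did not pass (edgeR adjusted p = 0.190). That value turned to 0.32 with an offset for transcript length, and over protein-coding transcripts alone it was -0.61 and passed (adjusted p = 0.00967, range 0.00967 to 0.396 over the alternatives). *Gtpbp2* footprints stood at 44.7, 36.1 and 38.4 CPM in B6J, 36.2, 43.3 and 58.3 in B6J.*Gtpbp1*-/- and 28.9, 26.4 and 7.54 in B6J-*Gtpbp2*-/-. They were lowest in the 3 B6J-*Gtpbp2*-/- libraries, with a log2 fold change of -0.97 ± 0.44 that did not pass (edgeR adjusted p = 0.321). In B6J.*Gtpbp1*-/- mice *Gtpbp2* RNA rose by 0.34 ± 0.083 on the log2 scale (edgeR adjusted p = 0.0154), a call lost without B6J.*Gtpbp1*-/- replicate 1 (adjusted p = 0.0647) or B6J replicate 2 (adjusted p = 0.0660, range 0.00125 to 0.0660 over the alternatives).

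The tissue carried the markers of cerebellum, and some of them moved with genotype. The 4 granule cell markers *Gabra6*, *Neurod1*, *Cbln3* and *Cbln1* summed to 2665, 2662 and 2733 TPM in B6J, 1647, 1583 and 1861 in B6J.*Gtpbp1*-/- and 1707, 1873 and 1640.1 in B6J-*Gtpbp2*-/-, with *Gabra6* the most abundant in B6J. All 4 fell for RNA in both mutants, the B6J-*Gtpbp2*-/- call of *Cbln3* being lost without B6J replicate 1 (adjusted p = 0.0502, range 2.05e-06 to 0.0502 over the alternatives). Microglial markers (*Cx3cr1*, *P2ry12*, *Csf1r*, *C1qa*, with *C1qa* the most abundant in B6J) summed to 50.6, 52.4 and 57.3 TPM in B6J, 127, 109.6 and 113 in B6J.*Gtpbp1*-/- and 111, 113 and 119.7 in B6J-*Gtpbp2*-/-. Every mutant library was above every B6J library, and 3 of the 4 genes, all but *P2ry12*, rose in each mutant. Fewer cells of a type and less RNA per cell cannot be told apart in such bulk samples, and the part of either cell type in the results on the synthetases was not tested.

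Markers of further cell types of the cerebellum moved in part. Purkinje cell markers (*Pcp2*, *Calb1*, *Car8*, with *Pcp2* the most abundant) summed to 3334, 3410.1 and 2905 TPM in B6J, 3477, 2851 and 3826 in B6J.*Gtpbp1*-/- and 2855, 3066 and 2552 in B6J-*Gtpbp2*-/-, and 1 of 3 (*Car8*) fell in B6J.*Gtpbp1*-/- mice and 2 of 3 (*Calb1*, *Car8*) in B6J-*Gtpbp2*-/- mice. Markers of astrocytes and Bergmann glia (*Aqp4*, *Gdf10*, *Slc1a3*, *Gfap*, with *Slc1a3* the most abundant) summed to 1435, 1498 and 1261 TPM in B6J, 1558, 1325 and 1567 in B6J.*Gtpbp1*-/- and 1347, 1551 and 1357 in B6J-*Gtpbp2*-/-, with *Gfap* risen and *Slc1a3* fallen in each mutant. Endothelial markers (*Cldn5* and *Pecam1*, with *Cldn5* the more abundant) summed to 41.1, 41.3 and 45.5 TPM in B6J, 63.0, 75.7 and 65.9 in B6J.*Gtpbp1*-/- and 63.2, 81.4 and 83.3 in B6J-*Gtpbp2*-/-, and *Cldn5* rose in each mutant and *Pecam1* in B6J-*Gtpbp2*-/- mice. In B6J.*Gtpbp1*-/- mice *Pecam1* was higher in every library than in B6J without passing by edgeR (0.35 ± 0.11, adjusted p = 0.0640), and DESeq2 called 2 of 2 there. Several of these calls were lost under an alternative, with the adjusted p in parentheses. This was so for *Car8* in B6J.*Gtpbp1*-/- mice without B6J.*Gtpbp1*-/- replicate 1 (0.170), B6J.*Gtpbp1*-/- replicate 2 (0.210), B6J replicate 1 (0.116) or B6J replicate 2 (0.133) and with upper quartile scaling (0.0646), the replicate block (0.0988), an offset for transcript length (0.0643) or sex as a covariate (0.102). There *Slc1a3* was lost without B6J.*Gtpbp1*-/- replicate 2 (0.0683) or B6J replicate 2 (0.0502) and with the replicate block (0.0587). In B6J-*Gtpbp2*-/- mice *Calb1* was lost without B6J-*Gtpbp2*-/- replicate 1 (0.0708), B6J-*Gtpbp2*-/- replicate 3 (0.146), B6J replicate 1 (0.117) or B6J replicate 2 (0.132) and with upper quartile scaling (0.0639), an offset for transcript length (0.0588) or sex as a covariate (0.139). *Car8* was lost there without B6J-*Gtpbp2*-/- replicate 3 (0.0502), B6J replicate 1 (0.0603) or B6J replicate 2 (0.0511) and with sex as a covariate (0.0541). *Slc1a3* was lost there without B6J-*Gtpbp2*-/- replicate 2 (0.0533), B6J-*Gtpbp2*-/- replicate 3 (0.0821), B6J replicate 1 (0.0876) or B6J replicate 2 (0.0865) and with sex as a covariate (0.0892). *Pecam1* was lost there without B6J-*Gtpbp2*-/- replicate 2 (0.0941), B6J-*Gtpbp2*-/- replicate 3 (0.159), B6J replicate 1 (0.0848), B6J replicate 2 (0.123) or B6J replicate 3 (0.0867) and with the replicate block (0.0577), an offset for transcript length (0.0907) or sex as a covariate (0.124). The highest adjusted p over the alternatives was 0.210 (*Car8*) in B6J.*Gtpbp1*-/- and 0.159 (*Pecam1*) in B6J-*Gtpbp2*-/- mice. The part of these cell types in the results was not tested.

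Tissue beside the cerebellum was also read. Choroid plexus markers (*Ttr*, *Kl*, nearly all *Ttr*) summed to 3269, 2149.8 and 443 TPM in B6J, 3637, 2709 and 760.2 in B6J.*Gtpbp1*-/- and 107, 2206 and 1438 in B6J-*Gtpbp2*-/-, and varied between the libraries of each genotype. Their footprints varied too, with sums of 5526, 3726 and 49.6 CPM in B6J, 13596, 182 and 11991 in B6J.*Gtpbp1*-/- and 463, 9428 and 9546 in B6J-*Gtpbp2*-/-. Markers of bone and skeletal muscle (*Col1a1*, *Acta1*, *Ckm*, *Myh1*, mostly *Col1a1*) summed to 11.7, 11.5 and 8.83 TPM in B6J, 9.77, 15.3 and 11.4 in B6J.*Gtpbp1*-/- and 8.67, 15.3 and 12.2 in B6J-*Gtpbp2*-/- but to 115, 358 and 538 footprint CPM in B6J, 970.1, 846 and 1695 in B6J.*Gtpbp1*-/- and 317, 544 and 209 in B6J-*Gtpbp2*-/-, with the B6J.*Gtpbp1*-/- footprint libraries highest. For RNA 0 genes of these 2 lists passed in either mutant by edgeR, 0 at an unadjusted p under 0.05 and 0 by DESeq2. For footprints 0 passed by edgeR, while 3 genes in B6J.*Gtpbp1*-/- mice and 1 gene in B6J-*Gtpbp2*-/- mice, all of bone and muscle, were under 0.05 unadjusted and DESeq2 called 1 in each. Their part in the results was not tested. *Ddx3y*, a gene of the Y chromosome, had 0, 4663 and 26 RNA counts in B6J, 5455, 6574 and 21 in B6J.*Gtpbp1*-/- and 21, 13 and 12 in B6J-*Gtpbp2*-/- and 379, 330 and 3 footprints in B6J, 835, 25 and 4 in B6J.*Gtpbp1*-/- and 16, 4 and 11 in B6J-*Gtpbp2*-/-. By these counts 3 RNA libraries and 3 footprint libraries came from males, none of them B6J-*Gtpbp2*-/-, and the RNA and footprint libraries with the same replicate number differed for B6J replicate 1 and B6J.*Gtpbp1*-/- replicate 2.

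Within B6J cerebellum the cytosolic enzymes were the more abundant. The median over the 20 cytosolic genes of the mean TPM was 59.1, against 13.9 over the 16 mitochondrial genes. Footprint density showed the same order, with medians of 43.0 and 13.2 CPM per kb. By TPM the highest cytosolic genes in B6J were *Nars* (mean 155 TPM) for asparagine and *Sars* (135 TPM) for serine, and the lowest were *Lars* (26.2 TPM) for leucine and *Vars* (29.1 TPM) for valine. Among mitochondrial genes *Lars2* (154 TPM) stood apart for its RNA but not for footprints (8.53 CPM per kb), and *Ears2*, the glutamate enzyme, was lowest in both (3.62 TPM and 3.40 CPM per kb). Footprint counts were low, with a mean under 50 over the 9 libraries, for *Ears2* (48.8), *Pars2* (38.1) and *Wars2* (46.4).

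The RNA of the cytosolic group was higher in both mutants, while sums over the mitochondrial group overlapped B6J or lay close to it. The TPM of the 20 cytosolic genes summed to 1307, 1271 and 1309 in B6J, 2606, 2687 and 2909 in B6J.*Gtpbp1*-/- and 2174, 2689 and 2649 in B6J-*Gtpbp2*-/-. Every mutant library was above every B6J library, and B6J-*Gtpbp2*-/- replicate 1 was the lowest of the mutant libraries. The TPM of the 16 mitochondrial genes summed to 437, 495 and 337 in B6J, 457, 427 and 429 in B6J.*Gtpbp1*-/- and 418, 428 and 519.7 in B6J-*Gtpbp2*-/-, with overlapping groups, and without *Lars2*, which varied most within B6J, to 276, 262 and 270.2 in B6J, 299, 320 and 299 in B6J.*Gtpbp1*-/- and 289.9, 302 and 286 in B6J-*Gtpbp2*-/-. In the latter sum the mutant libraries were all above B6J in TPM, by far less than the cytosolic sum. On the scale of normalized counts, the mitochondrial genes without *Lars2* summed to 353, 355 and 347 CPM in B6J, 360.03, 374 and 369 in B6J.*Gtpbp1*-/- and 341, 367 and 355 in B6J-*Gtpbp2*-/-, and there the B6J-*Gtpbp2*-/- group overlapped B6J. No test was run on these sums.

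The comparison of B6J.*Gtpbp1*-/- with B6J mice asked which synthetase RNAs differ where GTPBP1 is absent. The RNA of 14 of the 20 cytosolic genes rose, 0 fell, and 2 of the 16 mitochondrial genes rose. Over all 24577 genes tested by edgeR, 13.8% passed in either direction and 5.90% rose. The median log2 fold change was 0.97 over the cytosolic and 0.021 over the mitochondrial genes, beside 0.029 over all genes tested. The mitochondrial median ran from -0.014 to 0.073 over the alternatives and was below 0 without B6J replicate 3 (-0.014) and with an offset for transcript length (-0.0075). At an unadjusted p under 0.05 edgeR gave 15 cytosolic genes, the further one (*Hars*) lower, and 4 mitochondrial genes, *Mars2* and *Ears2* higher and *Aars2* (-0.20) and *Hars2* (-0.21) lower. DESeq2 called 15 and 2, the further cytosolic gene again being *Hars*, as lower. Of all genes tested 26.3% were under 0.05 unadjusted and 17.4% were called by DESeq2, shares that the mitochondrial counts did not exceed. The plot of RNA levels shows each library for the genes whose values follow.

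**Figure D1:**
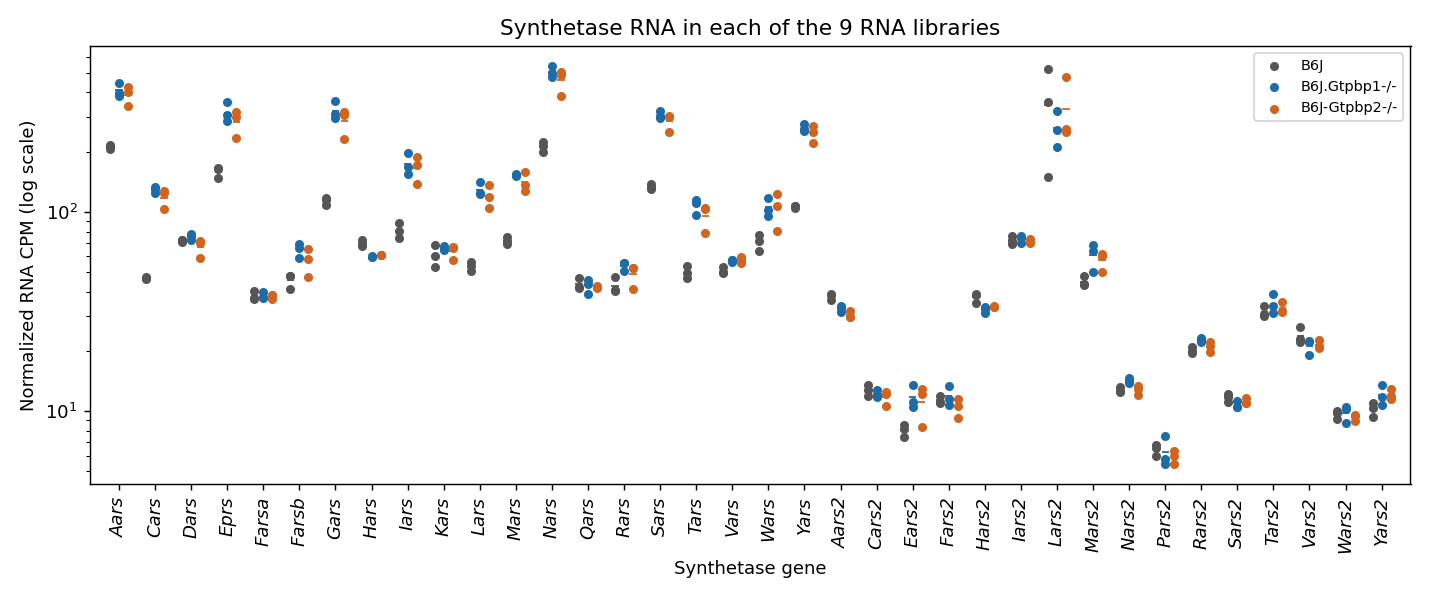
Normalized RNA level (TMM CPM, log axis) of the 36 synthetase genes in each of the 9 RNA libraries, by genotype, with points for libraries and short lines for group means. For *Cars* the 3 B6J libraries lie between 46.0 and 47.1 CPM and the mutant libraries between 103 and 134 CPM.

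Among the 6 cytosolic genes with the smallest p were the enzymes for cysteine, tyrosine, glycine, serine, leucine and methionine. *Cars*, for cysteine, had 46.0, 46.9 and 47.1 RNA CPM in B6J, 124, 134 and 132 in B6J.*Gtpbp1*-/- and 103, 128 and 124 in B6J-*Gtpbp2*-/-. *Yars*, for tyrosine, whose human gene is mutated in a form of Charcot-Marie-Tooth neuropathy, had 105, 107 and 108 CPM in B6J, 263, 255 and 278 in B6J.*Gtpbp1*-/- and 222, 270.2 and 254 in B6J-*Gtpbp2*-/-. *Gars*, for glycine, another gene of that disease, had 109, 118 and 115 CPM in B6J, 299, 312 and 360.3 in B6J.*Gtpbp1*-/- and 232, 319 and 308 in B6J-*Gtpbp2*-/-. In these 3 genes the B6J libraries lay close together, every mutant library was above all of them, and B6J-*Gtpbp2*-/- replicate 1 was the lowest mutant library. The RNA log2 fold change for B6J.*Gtpbp1*-/- mice was 1.48 ± 0.070 for *Cars* (edgeR adjusted p = 5.73e-08), the 9th smallest p of all genes tested. It was 1.31 ± 0.072 for *Yars* (adjusted p = 1.88e-07) and 1.50 ± 0.087 for *Gars* (adjusted p = 2.67e-07), with 3 of 3 B6J.*Gtpbp1*-/- libraries above B6J.

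*Sars*, for serine, had 134, 139 and 130.5 RNA CPM in B6J, 305, 297 and 323 in B6J.*Gtpbp1*-/- and 254, 306 and 302 in B6J-*Gtpbp2*-/-. *Lars*, for leucine, had 56.5, 53.7 and 50.7 CPM in B6J, 124, 124 and 141 in B6J.*Gtpbp1*-/- and 105, 138 and 119 in B6J-*Gtpbp2*-/-. *Mars*, for methionine and so also for the initiator tRNA, had 74.8, 69.5 and 71.5 CPM in B6J, 153, 155 and 154 in B6J.*Gtpbp1*-/- and 128, 159.7 and 138 in B6J-*Gtpbp2*-/-. Again no mutant library reached down to the B6J range, and B6J-*Gtpbp2*-/- replicate 1 was the lowest of them in each gene. The RNA log2 fold change for B6J.*Gtpbp1*-/- mice was 1.19 ± 0.074 for *Sars*, 1.27 ± 0.081 for *Lars* and 1.10 ± 0.070 for *Mars* (edgeR adjusted p = 4.27e-07, 4.68e-07 and 5.11e-07). The other 8 that rose in B6J.*Gtpbp1*-/- mice were *Nars* (1.24), *Iars* for isoleucine (1.11), *Tars* for threonine (1.11), *Eprs*, a single protein that charges both glutamate and proline (0.99), *Aars* for alanine (0.94), *Wars* for tryptophan (0.58), *Farsb*, a subunit of the phenylalanine enzyme (0.50), and *Rars* for arginine (0.34). All 3 B6J.*Gtpbp1*-/- libraries of each were above all 3 B6J libraries.

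The 6 cytosolic genes whose RNA did not pass by edgeR in either mutant were *Dars*, *Farsa*, *Hars*, *Kars*, *Qars* and *Vars*. *Kars*, which like *Gars* serves cytosol and mitochondria, had 60.4, 68.3 and 53.2 RNA CPM in B6J, 64.5, 65.0 and 68.1 in B6J.*Gtpbp1*-/- and 57.8, 66.2 and 66.7 in B6J-*Gtpbp2*-/-, with overlapping groups. Its log2 fold change was 0.12 ± 0.091 in mice without GTPBP1 and 0.068 ± 0.10 in mice without GTPBP2 (edgeR adjusted p = 0.465 and 0.769), the latter turning to -0.013 without B6J replicate 3 (adjusted p = 0.961, range 0.436 to 0.961 over the alternatives). *Hars*, for histidine, had 68.1, 69.1 and 72.4 CPM in B6J, 59.5, 60.3 and 59.8 in B6J.*Gtpbp1*-/- and 60.8, 61.2 and 61.0 in B6J-*Gtpbp2*-/-, lower in all 6 mutant libraries than in any B6J library, with log2 fold changes of -0.22 ± 0.072 and -0.20 ± 0.074. It did not pass by edgeR (adjusted p = 0.0596 and 0.136), and DESeq2 called it as lower in mice without GTPBP1 (adjusted p = 0.0336, range 0.0336 to 0.165 over the alternatives). *Vars* had 53.2, 49.5 and 50.1 CPM in B6J, 57.6, 55.9 and 57.6 in B6J.*Gtpbp1*-/- and 57.5, 59.8 and 55.3 in B6J-*Gtpbp2*-/-, higher in all 6 mutant libraries and also short of the threshold (edgeR adjusted p = 0.203 and 0.224). *Qars*, for glutamine, had 42.1, 41.4 and 46.9 CPM in B6J, 43.8, 45.8 and 39.1 in B6J.*Gtpbp1*-/- and 42.2, 41.6 and 42.7 in B6J-*Gtpbp2*-/-, with overlapping groups. *Dars*, for aspartate, had 71.1, 72.5 and 72.4 CPM in B6J, 72.6, 77.9 and 75.8 in B6J.*Gtpbp1*-/- and 58.7, 69.9 and 71.4 in B6J-*Gtpbp2*-/-. Its B6J.*Gtpbp1*-/- libraries lay just above B6J and its B6J-*Gtpbp2*-/- libraries overlapped B6J, and neither passed (edgeR adjusted p = 0.622 and 0.521).

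The phenylalanine enzyme is built of equal numbers of the subunits encoded by *Farsa* and *Farsb*. *Farsa* had 36.9, 36.6 and 40.0 RNA CPM in B6J, 37.2, 37.5 and 39.8 in B6J.*Gtpbp1*-/- and 36.7, 38.6 and 38.5 in B6J-*Gtpbp2*-/-, with overlapping groups. *Farsb* had 41.3, 47.6 and 48.0 CPM in B6J, 58.8, 66.0 and 69.1 in B6J.*Gtpbp1*-/- and 47.1, 58.4 and 65.7 in B6J-*Gtpbp2*-/-, higher in every B6J.*Gtpbp1*-/- library than in B6J, with a log2 fold change of 0.50 ± 0.091 (edgeR adjusted p = 0.00255). *Farsb* in B6J-*Gtpbp2*-/- mice overlapped B6J and did not pass (0.32 ± 0.12, edgeR adjusted p = 0.123), and the test between the mutants did not pass either (log2 fold change 0.18 ± 0.12, edgeR adjusted p = 1.00). Per length, the ratio of *Farsb* to *Farsa* was 1.54, 1.89 and 1.45 in B6J, 2.05, 2.25 and 2.26 in B6J.*Gtpbp1*-/- and 1.75, 1.91 and 2.15 in B6J-*Gtpbp2*-/- in TPM. For footprint density the ratio was 1.23, 1.25 and 1.23 in B6J, 2.07, 1.52 and 1.00 in B6J.*Gtpbp1*-/- and 1.19, 0.991 and 1.09 in B6J-*Gtpbp2*-/-, where the B6J.*Gtpbp1*-/- libraries lay on both sides of B6J and the B6J-*Gtpbp2*-/- libraries below it. These ratios were not tested.

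*Rars* charges all arginine tRNAs, the AGA-reading tRNA affected by *n-Tr20* included. It had 40.0, 40.5 and 47.4 RNA CPM in B6J, 50.5, 55.4 and 55.9 in B6J.*Gtpbp1*-/- and 41.3, 52.7 and 52.4 in B6J-*Gtpbp2*-/-, with the B6J.*Gtpbp1*-/- libraries all above and the B6J-*Gtpbp2*-/- libraries overlapping B6J. The log2 fold change was 0.34 ± 0.092 in B6J.*Gtpbp1*-/- mice (edgeR adjusted p = 0.0273) and 0.19 ± 0.11 in B6J-*Gtpbp2*-/- mice (edgeR adjusted p = 0.357), and between the mutants it was 0.14 ± 0.10 (edgeR adjusted p = 1.00). The B6J.*Gtpbp1*-/- call was lost without B6J.*Gtpbp1*-/- replicate 2 (adjusted p = 0.119), B6J.*Gtpbp1*-/- replicate 3 (0.0870), B6J replicate 1 (0.115) or B6J replicate 2 (0.102), in a range of 0.00469 to 0.119 over the alternatives. Its mitochondrial counterpart *Rars2* had 21.0, 20.2 and 19.7 CPM in B6J, 22.7, 23.4 and 22.3 in B6J.*Gtpbp1*-/- and 19.97, 22.2 and 21.4 in B6J-*Gtpbp2*-/-. The B6J.*Gtpbp1*-/- libraries of *Rars2* were slightly above B6J and the B6J-*Gtpbp2*-/- libraries overlapped it, and neither passed (log2 fold change 0.17 ± 0.10 and 0.060 ± 0.10, edgeR adjusted p = 0.317 and 0.808).

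In B6J-*Gtpbp2*-/- mice, where GTPBP2 is absent, the RNA of 12 cytosolic synthetase genes rose, 0 fell, and 1 mitochondrial gene rose. Over all 24859 genes tested by edgeR, 8.63% passed in either direction and 3.61% rose. The median log2 fold change was 0.85 over the cytosolic and -0.056 over the mitochondrial genes, beside 0.027 over all genes tested. Over the alternatives the mitochondrial median ran from -0.062 to -0.012. The same 6 genes as in B6J.*Gtpbp1*-/- mice had the smallest p among the cytosolic members. The RNA log2 fold change in B6J-*Gtpbp2*-/- mice was 1.34 ± 0.090 for *Cars* and 1.22 ± 0.086 for *Yars* (edgeR adjusted p = 1.36e-05 and 1.78e-05). It was 1.09 ± 0.088 for *Sars* and 1.32 ± 0.11 for *Gars* (edgeR adjusted p = 4.54e-05 and 7.53e-05). For *Lars* and *Mars* it was 1.17 ± 0.10 and 0.98 ± 0.093 (edgeR adjusted p = 8.68e-05 and 0.000125).

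The other 6 that rose in B6J-*Gtpbp2*-/- mice were *Nars* (1.10), *Iars* (1.05), *Tars* (0.93), *Aars* (0.87), *Eprs* (0.83) and *Wars* (0.56), each with 3 of 3 mutant libraries above B6J. *Wars* had 71.8, 76.6 and 64.0 RNA CPM in B6J, 103, 96.3 and 118 in B6J.*Gtpbp1*-/- and 80.1, 108 and 124 in B6J-*Gtpbp2*-/-. Its edgeR adjusted p was 0.0426 in B6J-*Gtpbp2*-/- mice against 0.000937 in B6J.*Gtpbp1*-/- mice. Its B6J-*Gtpbp2*-/- call was lost without any single one of B6J-*Gtpbp2*-/- replicates 2 and 3 and B6J replicates 1, 2 and 3 (adjusted p = 0.115, 0.114, 0.119, 0.0842 and 0.116). With an offset for transcript length its adjusted p was 0.0649, with sex as a covariate 0.0837 and with the replicate block 0.0768, in a range of 0.00156 to 0.119 over the alternatives. At an unadjusted p under 0.05 edgeR gave 14 cytosolic genes in B6J-*Gtpbp2*-/- mice, the further 2 being *Farsb* (higher, 0.32) and *Hars* (lower, -0.20), and 3 mitochondrial genes, *Mars2* and *Ears2* higher and *Aars2* lower (-0.31). DESeq2 called 12 and 2, the mitochondrial genes being *Mars2* as higher and *Aars2* as lower. The shares of all genes tested were 22.5% and 13.7%, above those of the mitochondrial genes.

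**Figure D2:**
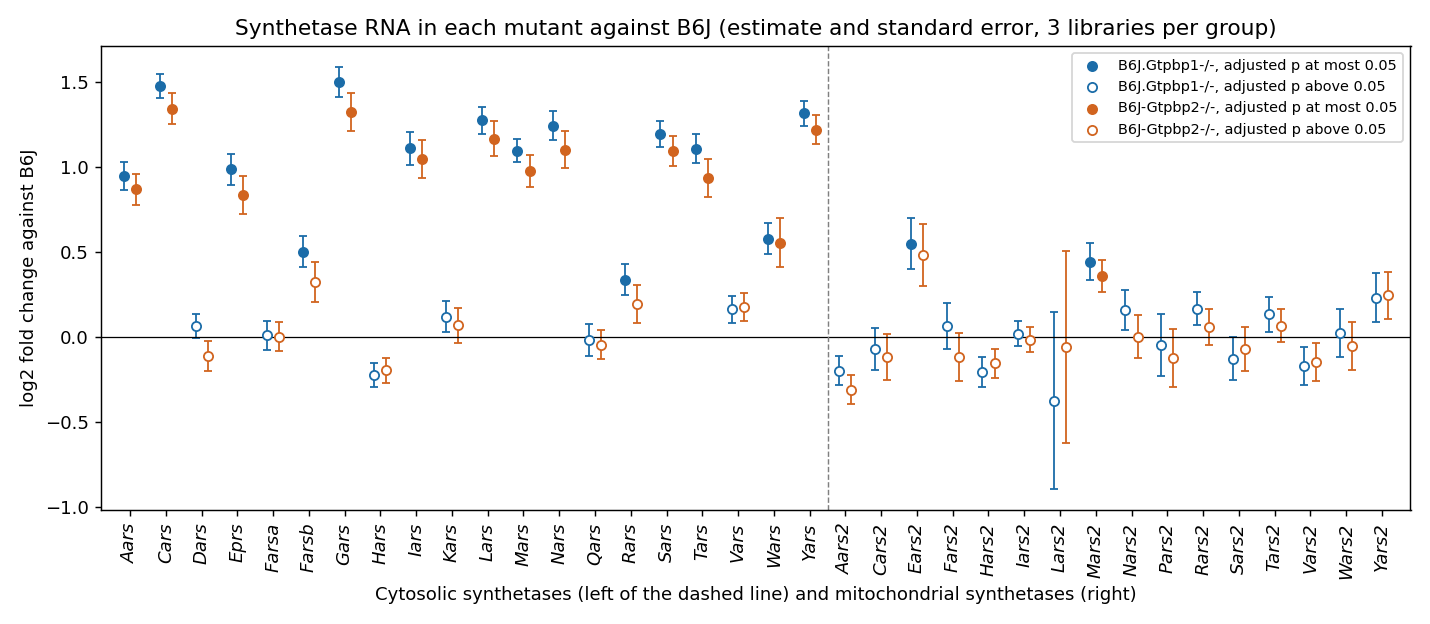
Log2 fold change of RNA against B6J for the 36 synthetase genes in each mutant, with bars for the standard error, filled points for an adjusted p of at most 0.05 and a dashed line between cytosolic and mitochondrial genes. Filled points number 14 and 12 among cytosolic genes and 2 and 1 among mitochondrial genes, in B6J.*Gtpbp1*-/- and B6J-*Gtpbp2*-/- mice.

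Between the mutants themselves, 0 of 20 cytosolic and 0 of 16 mitochondrial genes passed for RNA by edgeR, where 0.0595% of the 25190 genes tested passed. Each count was also 0 at an unadjusted p under 0.05 and 0 by DESeq2, beside 3.57% and 0.183% of all genes tested. The median log2 fold change of B6J.*Gtpbp1*-/- over B6J-*Gtpbp2*-/- mice was 0.10 for cytosolic and 0.068 for mitochondrial genes, beside -0.000989 over all genes tested. Without B6J.*Gtpbp1*-/- replicate 3, B6J-*Gtpbp2*-/- replicate 1 or B6J-*Gtpbp2*-/- replicate 2 the cytosolic median was 0.064, 0.023 or 0.18, and with sex as a covariate 0.18. The mitochondrial median was 0.042, 0.037 or 0.036 without B6J.*Gtpbp1*-/- replicate 3, B6J-*Gtpbp2*-/- replicate 1 or B6J-*Gtpbp2*-/- replicate 3, 0.028 over protein-coding transcripts and 0.040 with sex as a covariate. With sex in the fit this comparison rests on B6J.*Gtpbp1*-/- replicate 3 alone for that genotype, since its other RNA libraries are male and all B6J-*Gtpbp2*-/- libraries female. The normalized counts of the mutant groups did not overlap for 5 of the 36 genes, beside 8.95% of all genes tested. Of these, *Dars*, *Rars2* and *Nars2* were higher and *Hars* and *Hars2* lower in B6J.*Gtpbp1*-/- than in B6J-*Gtpbp2*-/- mice. *Nars2*, the mitochondrial asparagine enzyme, had 13.2, 12.7 and 12.5 CPM in B6J, 14.2, 14.7 and 13.9 in B6J.*Gtpbp1*-/- and 12.1, 13.4 and 12.9 in B6J-*Gtpbp2*-/-. *Hars2*, the mitochondrial histidine enzyme, had 38.2, 35.2 and 38.9 CPM in B6J, 33.5, 32.6 and 31.2 in B6J.*Gtpbp1*-/- and 33.6, 33.7 and 33.5 in B6J-*Gtpbp2*-/-. For *Nars2* the B6J.*Gtpbp1*-/- libraries lay above B6J too, and for *Hars2* all 6 mutant libraries lay below B6J. For *Hars2* the direction turned over protein-coding transcripts alone (log2 fold change 0.021, against -0.053 over all transcripts).

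Of the mitochondrial synthetases, 2 rose in B6J.*Gtpbp1*-/- mice and 1 rose in B6J-*Gtpbp2*-/- mice, and none fell by edgeR. *Mars2*, for methionine, had 43.2, 47.6 and 43.8 RNA CPM in B6J, 50.3, 64.1 and 68.5 in B6J.*Gtpbp1*-/- and 50.3, 60.1 and 62.0 in B6J-*Gtpbp2*-/-, with every mutant library above B6J. Its log2 fold change was 0.44 ± 0.11 in mice without GTPBP1 and 0.36 ± 0.10 in mice without GTPBP2 (edgeR adjusted p = 0.0151 and 0.0413). *Ears2*, the glutamate enzyme, whose product on the glutamine tRNA is turned into glutamine by an amidotransferase, had 7.46, 8.51 and 8.14 CPM in B6J, 10.5, 11.2 and 13.6 in B6J.*Gtpbp1*-/- and 8.36, 13.0 and 12.3 in B6J-*Gtpbp2*-/-. Its B6J.*Gtpbp1*-/- libraries were all above B6J, with a log2 fold change of 0.55 ± 0.15 (edgeR adjusted p = 0.0268). For *Ears2*, B6J-*Gtpbp2*-/- replicate 1 lay in the B6J range and the gene did not pass (0.48 ± 0.18, edgeR adjusted p = 0.138), and the difference between the mutants was 0.069 ± 0.18 (edgeR adjusted p = 1.00). *Aars2*, for alanine, had 38.7, 38.4 and 36.4 CPM in B6J, 34.0, 33.2 and 31.7 in B6J.*Gtpbp1*-/- and 29.9, 32.0 and 29.8 in B6J-*Gtpbp2*-/-, lower in all mutant libraries than in B6J. It did not pass in B6J-*Gtpbp2*-/- mice (-0.31 ± 0.087, edgeR adjusted p = 0.0509) or B6J.*Gtpbp1*-/- mice (-0.20 ± 0.085, edgeR adjusted p = 0.154). DESeq2 called it in B6J-*Gtpbp2*-/- mice (adjusted p = 0.0146), and so did the test over protein-coding transcripts alone (0.0342), in a range of 0.0146 to 0.179 over the alternatives.

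The mitochondrial calls were each lost when any of several single libraries was left out. Under the settings that lost a call, log2 fold changes ran from 0.30 (*Mars2*, B6J-*Gtpbp2*-/- mice) to 0.69 (*Ears2*, B6J.*Gtpbp1*-/- mice). In B6J.*Gtpbp1*-/- mice the count of 2 was 0 without B6J.*Gtpbp1*-/- replicate 2, without B6J.*Gtpbp1*-/- replicate 3 or without B6J replicate 1, and 1 without B6J replicate 2. Without these 4 libraries in turn the adjusted p of *Ears2* was 0.0715, 0.122, 0.0913 and 0.0598 (range 0.00585 to 0.191 over the alternatives). That of *Mars2* was 0.0810, 0.0691 and 0.0734 without the first 3 of them (range 4.75e-05 to 0.0810 over the alternatives). With an offset for transcript length neither was called (adjusted p = 0.0654 and 0.0537). *Ears2* was also lost over protein-coding transcripts alone (0.191) and with the replicate block (0.0573). In B6J-*Gtpbp2*-/- mice the count of 1 was 0 without B6J-*Gtpbp2*-/- replicate 2 or 3 or any B6J library, and 2 without B6J-*Gtpbp2*-/- replicate 1, where *Ears2* passed as well (adjusted p = 0.0234, range 0.0234 to 0.422 over the alternatives). The adjusted p of *Mars2* there was 0.137 and 0.162 without B6J-*Gtpbp2*-/- replicates 2 and 3, and 0.148, 0.0824 and 0.0793 without B6J replicates 1, 2 and 3. It was 0.0892 with an offset for length and 0.0841 with sex as a covariate (range 0.00828 to 0.162 over the alternatives).

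The other 13 mitochondrial genes did not pass for RNA in either mutant, with log2 fold changes from -0.37 to 0.23 in B6J.*Gtpbp1*-/- and from -0.16 to 0.24 in B6J-*Gtpbp2*-/- mice. *Hars2* was lower in all 6 mutant libraries than in B6J (log2 fold change -0.21 ± 0.088 and -0.16 ± 0.087, edgeR adjusted p = 0.152 and 0.335). *Lars2* had 357, 526 and 150.2 RNA CPM in B6J, 323, 214 and 260.2 in B6J.*Gtpbp1*-/- and 261, 254 and 477 in B6J-*Gtpbp2*-/-, a spread within B6J larger than any difference between the groups. Most of its RNA was assigned to Lars2-209, a transcript annotated as a target of nonsense-mediated decay, at 143, 209.5 and 52.8 TPM in B6J, 127, 83.3 and 102 in B6J.*Gtpbp1*-/- and 98.3, 96.6 and 203 in B6J-*Gtpbp2*-/-. The coding transcript Lars2-201 had 15.9, 21.7 and 12.3 TPM in B6J, 29.7, 21.1 and 26.6 in B6J.*Gtpbp1*-/- and 28.6, 27.6 and 29.3 in B6J-*Gtpbp2*-/-. There the B6J-*Gtpbp2*-/- libraries lay above B6J and the B6J.*Gtpbp1*-/- libraries overlapped it. Neither transcript was tested alone.

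By structure the cytosolic enzymes fall into class I and class II, which have unrelated catalytic folds, and members of both rose. Of the 9 class I genes, 7 rose in B6J.*Gtpbp1*-/- mice and 6 rose in B6J-*Gtpbp2*-/- mice, with median log2 fold changes of 1.10 and 0.98. Of the 10 class II genes, 6 and 5 rose, with medians of 0.72 and 0.60. *Eprs* holds an enzyme of each class and was counted in neither. Of the 8 synthetase genes of the multi-synthetase complex, an assembly of cytosolic synthetases on scaffold proteins, 5 rose in B6J.*Gtpbp1*-/- mice (*Eprs*, *Iars*, *Lars*, *Mars*, *Rars*) and 4 in B6J-*Gtpbp2*-/- mice (all of these but *Rars*). Among its 3 scaffolds, *Eef1e1* rose in B6J.*Gtpbp1*-/- mice (0.55 ± 0.10, edgeR adjusted p = 0.00228), while *Aimp1* and *Aimp2* did not pass by edgeR. DESeq2 called *Aimp1* there as well, and so did edgeR with upper quartile scaling (log2 fold change 0.28 ± 0.087, edgeR adjusted p = 0.0523, with DESeq2 0.0254 and with upper quartile scaling 0.0236, range 0.0236 to 0.149 over the alternatives). The call of *Eef1e1* was lost with an offset for transcript length (adjusted p = 0.0735, range 1.16e-05 to 0.0735 over the alternatives). Of the 3 scaffolds, 0 passed in B6J-*Gtpbp2*-/- mice by edgeR, with 1 at an unadjusted p under 0.05 and 1 by DESeq2, and *Eef1e1* had a log2 fold change of 0.33 ± 0.11 (adjusted p = 0.0996) there and of 0.22 ± 0.10 between the mutants (adjusted p = 1.00).

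Other genes that act on tRNA were read beside the synthetases. *Xpot*, which exports tRNA from the nucleus, had 81.4, 84.4 and 75.3 RNA CPM in B6J, 208, 199.9 and 241 in B6J.*Gtpbp1*-/- and 159, 219 and 218 in B6J-*Gtpbp2*-/-, every mutant library lying above B6J. Its log2 fold change was 1.43 ± 0.087 in mice without GTPBP1 and 1.30 ± 0.12 in mice without GTPBP2 (edgeR adjusted p = 3.58e-07 and 0.000103), and it was the 1 of 4 genes of tRNA end maturation and export to pass in each. Of all genes tested, 1949 of 24577 fell in B6J.*Gtpbp1*-/- mice and 1248 of 24859 in B6J-*Gtpbp2*-/- mice. Of the 3 genes that deliver charged tRNA to the ribosome, 2 fell in each mutant. These were *Eef1a2* (-0.53 and -0.45), the elongation factor of mature neurons and muscle, and *Tufm* (-0.35 and -0.39), its mitochondrial counterpart. The remaining gene, *Eef1a1*, the other form of this elongation factor, was higher in all 6 mutant libraries than in B6J (0.25 ± 0.079 and 0.23 ± 0.078) without passing by edgeR (adjusted p = 0.0558 and 0.0942). DESeq2 called it as higher in both mutants, and thus 3 of the 3 genes (adjusted p of *Eef1a1* = 0.00181 and 0.00573). By edgeR it passed in mice without GTPBP1 with upper quartile scaling (0.0196) and over protein-coding transcripts (0.0355), in ranges of 0.00181 to 0.180 and 0.00573 to 0.248 over the alternatives. The *Tufm* call was lost in B6J.*Gtpbp1*-/- mice without B6J.*Gtpbp1*-/- replicate 1 (0.0793) or B6J replicate 2 (0.0905) and with an offset for transcript length (0.188). In B6J-*Gtpbp2*-/- mice it was lost without B6J-*Gtpbp2*-/- replicate 3 (0.0532), B6J replicate 1 (0.0514), B6J replicate 2 (0.111) or B6J replicate 3 (0.0510) and with an offset for transcript length (0.0609) or sex as a covariate (0.108) (ranges 0.00391 to 0.188 and 0.00336 to 0.111 over the alternatives). Of 9 other genes of aminoacylation and editing, among them the selenocysteine genes *Pstk* and *Sepsecs*, 0 passed in either mutant by edgeR, 0 at an unadjusted p under 0.05 and 0 by DESeq2. The same held for the 4 genes of the mitochondrial amidotransferase and formyltransferase (*Qrsl1*, *Gatb*, *Gatc*, *Mtfmt*). All 10 reference genes of the amino acid response (such as *Atf4*, *Asns* and *Chac1*) rose for RNA in both mutants, with medians of 2.14 and 2.04. Over all genes tested 5.90% and 3.61% rose, with medians of 0.029 and 0.027. The reference genes were chosen with earlier results of these data known, so their rise was not an independent finding.

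Part of the *Mars* RNA did not code for protein. Its transcript Mars-205, annotated as a retained intron, had 17.0, 16.5 and 19.0 TPM in B6J, 45.9, 55.0 and 49.9 in B6J.*Gtpbp1*-/- and 45.3, 57.9 and 49.1 in B6J-*Gtpbp2*-/-. Each mutant library held over 2 times the TPM of any B6J library. The share of *Mars* TPM in protein-coding transcripts was 64.8, 54.4 and 64.6% in B6J, 54.4, 51.8 and 47.5 in B6J.*Gtpbp1*-/- and 47.1, 47.5 and 42.4 in B6J-*Gtpbp2*-/-. To 3 digits B6J.*Gtpbp1*-/- replicate 1 equalled the lowest B6J library, and the other 5 mutant libraries lay below it. For *Cars2*, the mitochondrial cysteine enzyme, the coding share was 46.5, 38.2 and 46.2% in B6J, 19.5, 21.2 and 25.6 in B6J.*Gtpbp1*-/- and 26.7, 28.8 and 28.4 in B6J-*Gtpbp2*-/-, lower in every mutant library than in B6J although its RNA as a whole did not pass. That of *Tars2*, for threonine, was 65.5, 59.8 and 63.5% in B6J, 48.3, 44.9 and 52.5 in B6J.*Gtpbp1*-/- and 57.4, 57.3 and 52.7 in B6J-*Gtpbp2*-/-, again lower in every mutant library than in B6J. For *Rars2* it was 81.2, 80.2 and 68.9% in B6J, 87.2, 85.7 and 83.8 in B6J.*Gtpbp1*-/- and 82.6, 91.9 and 92.7 in B6J-*Gtpbp2*-/-, higher in every mutant library. The share of *Dars* lay between 98.7 and 98.9% in the mutant libraries, just below the lowest B6J library (98.96%), and in no other member did all 6 mutant libraries lie on the same side of B6J. How often this occurs over all genes was not computed, so whether these members stand out is not known. The coding share of *Gars* was 99.4, 98.0 and 100% in B6J, 99.3, 98.8 and 98.8 in B6J.*Gtpbp1*-/- and 98.6, 98.9 and 98.8 in B6J-*Gtpbp2*-/-, and *Hars*, *Lars*, *Nars* and *Mars2* had only protein-coding transcripts. These shares were not tested.

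Footprints in B6J.*Gtpbp1*-/- mice were higher than in B6J for a part of the cytosolic genes. Summed over the 20 cytosolic genes, they stood at 2352, 2196 and 2678 CPM in B6J, 4219, 3711 and 3505 in B6J.*Gtpbp1*-/- and 4358, 3894 and 3799.99 in B6J-*Gtpbp2*-/-, and over the 16 mitochondrial genes at 378, 386 and 392 CPM in B6J, 312, 337 and 332 in B6J.*Gtpbp1*-/- and 409, 425 and 331 in B6J-*Gtpbp2*-/-. Every mutant library was above B6J for the cytosolic sum, while for the mitochondrial sum the B6J.*Gtpbp1*-/- libraries were all below B6J and the B6J-*Gtpbp2*-/- libraries on both sides of it. In B6J.*Gtpbp1*-/- mice 4 cytosolic genes passed, all higher, and 0 mitochondrial genes did by edgeR. Over all 13956 genes tested 0.745% passed and 0.573% were higher. The median log2 fold change of footprints was 0.66 for cytosolic and -0.23 for mitochondrial genes, beside 0.014 over all genes tested. At an unadjusted p under 0.05 edgeR gave 11 cytosolic genes and 1 mitochondrial gene (*Aars2*, log2 fold change -0.74 ± 0.23), and DESeq2 called 10 (the 4 with *Aars*, *Cars*, *Eprs*, *Iars*, *Nars* and *Tars*, all higher) and 0, beside 12.6% and 2.91% of all genes tested.

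*Gars* had 235, 186 and 239 footprint CPM in B6J, 492, 436 and 463 in B6J.*Gtpbp1*-/- and 465, 402 and 425 in B6J-*Gtpbp2*-/-. *Yars* had 135, 119.6 and 161 footprint CPM in B6J, 297, 272 and 277 in B6J.*Gtpbp1*-/- and 354, 292 and 291 in B6J-*Gtpbp2*-/-. *Sars* had 209, 193 and 252 footprint CPM in B6J, 467, 383 and 402 in B6J.*Gtpbp1*-/- and 443, 361 and 371 in B6J-*Gtpbp2*-/-. In these 3, and in *Lars* with 57.7, 46.5 and 58.6 footprint CPM in B6J, 127, 108 and 93.0 in B6J.*Gtpbp1*-/- and 163, 135 and 102 in B6J-*Gtpbp2*-/-, the groups of mutant libraries lay wholly above B6J. The footprint log2 fold change for B6J.*Gtpbp1*-/- mice was 1.08 ± 0.18 for *Gars* and 1.03 ± 0.18 for *Yars* (edgeR adjusted p = 0.0141 and 0.0197). It was 0.94 ± 0.18 for *Sars* and 1.01 ± 0.20 for *Lars* (edgeR adjusted p = 0.0324 and 0.0329). The count of 4 was 0 without B6J.*Gtpbp1*-/- replicate 1, B6J replicate 1 or B6J replicate 2, 2 without B6J.*Gtpbp1*-/- replicate 2 and 8 without B6J.*Gtpbp1*-/- replicate 3, and with the replicate block it was 0 (0.0859 for *Gars*, 0.0977 for *Yars*, 0.161 for *Sars* and 0.130 for *Lars*). The adjusted p ran over the alternatives from 4.96e-06 to 0.0940 for *Gars*, 3.49e-05 to 0.148 for *Yars*, 0.000273 to 0.203 for *Sars* and 0.000579 to 0.164 for *Lars*. *Lars* was lost also without B6J replicate 3 (adjusted p = 0.0514).

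Markers of cell types moved for footprints as well. Markers of granule cells summed to 2028, 3568 and 2719.6 footprint CPM in B6J, 2098, 1397 and 2020.3 in B6J.*Gtpbp1*-/- and 1300.2, 1048 and 1163 in B6J-*Gtpbp2*-/-, with 0 of 4 called in B6J.*Gtpbp1*-/- mice by edgeR (2 at an unadjusted p under 0.05, 0 by DESeq2) and 4 of 4 lower in B6J-*Gtpbp2*-/- mice. The B6J-*Gtpbp2*-/- call of *Cbln3* was lost without B6J-*Gtpbp2*-/- replicate 1 (0.0795), B6J-*Gtpbp2*-/- replicate 2 (0.0852) or B6J-*Gtpbp2*-/- replicate 3 (0.0504), in a range of 5.10e-05 to 0.0852 over the alternatives. Markers of microglia summed to 135, 163 and 129 footprint CPM in B6J, 336, 192 and 378 in B6J.*Gtpbp1*-/- and 193, 198 and 259.8 in B6J-*Gtpbp2*-/-, with 1 of 4 called as higher by edgeR in each mutant, which was *C1qa* (1.50 and 1.30, edgeR adjusted p = 0.0305 and 0.00683). At an unadjusted p under 0.05 there were 4 of 4 in B6J.*Gtpbp1*-/- and 2 of 4 in B6J-*Gtpbp2*-/- mice, and DESeq2 called 3 and 1. Endothelial markers summed to 105, 74.9 and 121 footprint CPM in B6J, 292, 199 and 226 in B6J.*Gtpbp1*-/- and 265, 207 and 228 in B6J-*Gtpbp2*-/-, with 1 of 2 called as higher in each mutant, which was *Cldn5* (1.42 and 1.41, edgeR adjusted p = 0.0209 and 0.00395). In B6J.*Gtpbp1*-/- mice *C1qa* was lost without B6J.*Gtpbp1*-/- replicate 1 (0.124), B6J replicate 1 (0.143), B6J replicate 2 (0.140) or B6J replicate 3 (0.0669) and with the replicate block (0.0648), and *Cldn5* without B6J.*Gtpbp1*-/- replicate 1 (0.0830), B6J replicate 1 (0.156) or B6J replicate 2 (0.0891) (ranges 0.000130 to 0.143 and 2.92e-05 to 0.156 over the alternatives). Of the markers of Purkinje cells and of astrocytes and Bergmann glia, 0 were called by edgeR in either mutant, with 3 genes in mice without GTPBP1 and 1 gene in mice without GTPBP2 at an unadjusted p under 0.05 and 1 in each by DESeq2. The part of these cell types in the footprints of the synthetases was not tested.

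Footprints of 11 cytosolic genes were higher in B6J-*Gtpbp2*-/- mice than in B6J. These were *Aars*, *Cars*, *Eprs*, *Gars*, *Iars*, *Lars*, *Mars*, *Nars*, *Sars*, *Tars* and *Yars*, while 0 mitochondrial genes were called by edgeR. Over all 13797 genes tested 2.94% passed and 1.28% were higher. The median log2 fold change was 0.73 for cytosolic and 0.047 for mitochondrial genes, beside 0.0053 over all genes tested. The mitochondrial median was -0.026 without B6J-*Gtpbp2*-/- replicate 1, -0.025 without B6J-*Gtpbp2*-/- replicate 2, 0.12 without B6J-*Gtpbp2*-/- replicate 3 and 0.026 without B6J replicate 1. At an unadjusted p under 0.05 edgeR gave 11 cytosolic genes and 1 mitochondrial gene (*Ears2*, log2 fold change 0.86 ± 0.34), and DESeq2 called 11 and 0, beside 17.1% and 4.75% of all genes tested. All 11 were among the 12 cytosolic genes whose RNA rose in these mice, the remaining gene being *Wars*, and likewise the 4 of B6J.*Gtpbp1*-/- mice were among the 14 there.

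The footprint log2 fold change in B6J-*Gtpbp2*-/- mice was 1.16 ± 0.16 for *Yars* and 1.28 ± 0.19 for *Lars* (edgeR adjusted p = 0.00160 and 0.00269). *Nars* had 210.3, 208 and 278 footprint CPM in B6J, 514, 419 and 367 in B6J.*Gtpbp1*-/- and 504, 423 and 481 in B6J-*Gtpbp2*-/-, all mutant libraries lying above B6J. Its log2 fold change was 1.01 ± 0.16 in B6J-*Gtpbp2*-/- mice (edgeR adjusted p = 0.00419) and 0.90 ± 0.20 in B6J.*Gtpbp1*-/- mice, where it fell short by edgeR (adjusted p = 0.0568) and was called by DESeq2 (0.00248, range 0.00248 to 0.262 over the alternatives). For *Gars* the value in B6J-*Gtpbp2*-/- mice was 0.96 ± 0.16 (edgeR adjusted p = 0.00429). *Cars* had 55.2, 51.3 and 46.7 footprint CPM in B6J, 80.8, 82.3 and 103 in B6J.*Gtpbp1*-/- and 119, 132 and 81.0 in B6J-*Gtpbp2*-/-, wholly above B6J in each mutant, and passed in B6J-*Gtpbp2*-/- mice (1.10 ± 0.19, edgeR adjusted p = 0.00642) but not by edgeR in B6J.*Gtpbp1*-/- mice (0.80 ± 0.19, adjusted p = 0.0781), where DESeq2 called it (0.0118, range 0.0118 to 0.259 over the alternatives). Its difference between the mutants was -0.31 ± 0.21 (edgeR adjusted p = 0.626).

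The count of 11 was 4 without B6J-*Gtpbp2*-/- replicate 1, at adjusted p of 0.0635 for *Aars*, 0.0550 for *Cars*, 0.0677 for *Eprs*, 0.0511 for *Iars*, 0.132 for *Mars*, 0.0890 for *Sars* and 0.0832 for *Tars*. Other single libraries ended the calls of *Mars* (B6J-*Gtpbp2*-/- replicate 2, adjusted p = 0.132, B6J replicate 1, 0.129, B6J replicate 2, 0.0505), *Tars* (B6J-*Gtpbp2*-/- replicate 2, 0.05003, B6J replicate 1, 0.0591) and *Sars* (B6J replicate 1, 0.0516). The lowest adjusted p of these genes over the alternatives was 1.25e-05, 4.14e-05, 4.63e-05, 2.64e-05, 0.00532, 0.000123 and 0.000207. The 9 cytosolic genes without a footprint call in either mutant were *Dars*, *Farsa*, *Farsb*, *Hars*, *Kars*, *Qars*, *Rars*, *Vars* and *Wars*.

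**Figure D3:**
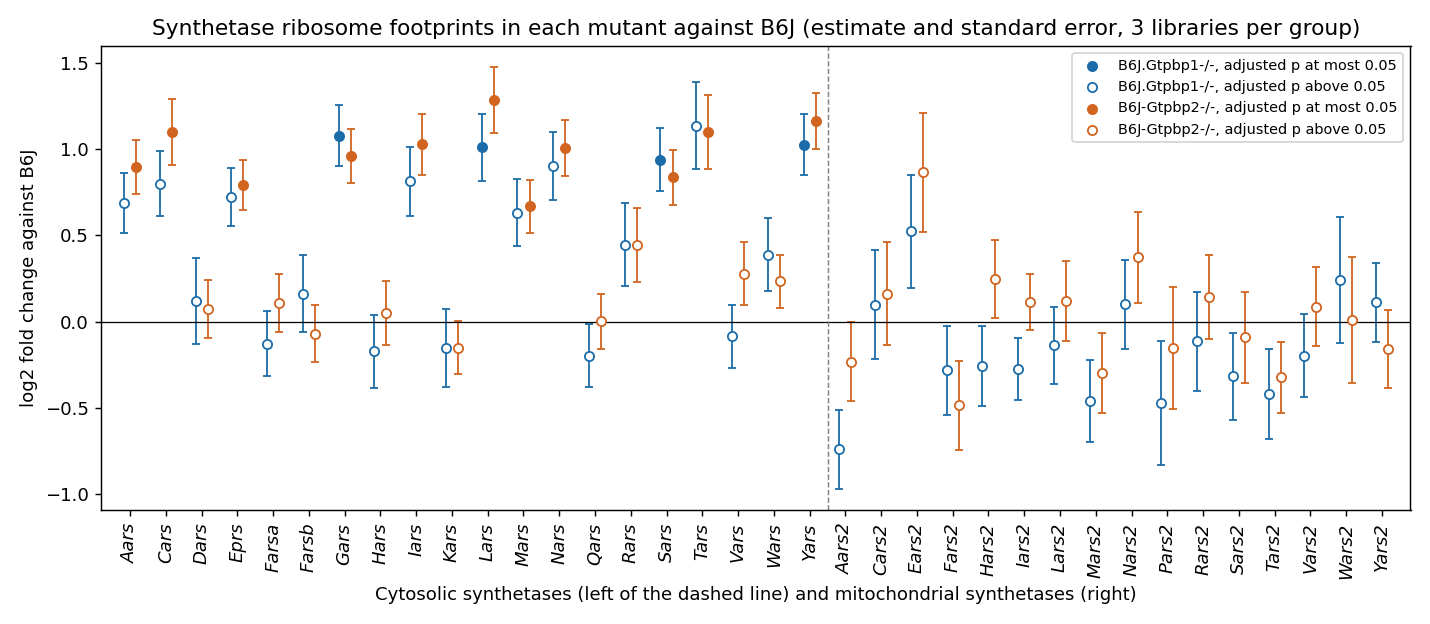
Log2 fold change of ribosome footprints against B6J for the 36 synthetase genes in each mutant, with bars for the standard error, filled points for an adjusted p of at most 0.05 and a dashed line between cytosolic and mitochondrial genes. There are 4 filled points for B6J.*Gtpbp1*-/- mice and 11 filled points for B6J-*Gtpbp2*-/- mice, all of them cytosolic.

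Of the enzymes for arginine and of those that serve both compartments, *Gars* alone passed for footprints. *Kars* had 87.2, 90.7 and 96.6 footprint CPM in B6J, 108, 81.2 and 57.4 in B6J.*Gtpbp1*-/- and 86.5, 81.4 and 81.1 in B6J-*Gtpbp2*-/-. *Rars* had 65.3, 41.2 and 74.2 footprint CPM in B6J, 97.8, 83.6 and 64.8 in B6J.*Gtpbp1*-/- and 94.6, 66.2 and 86.2 in B6J-*Gtpbp2*-/-. *Rars2* had 34.9, 19.4 and 25.1 footprint CPM in B6J, 25.6, 30.9 and 16.4 in B6J.*Gtpbp1*-/- and 35.4, 29.4 and 23.6 in B6J-*Gtpbp2*-/-. The groups overlapped in all of these but *Kars*, whose B6J-*Gtpbp2*-/- libraries were just below B6J. The log2 fold changes of *Kars* were -0.15 ± 0.22 in mice without GTPBP1 and -0.15 ± 0.15 in mice without GTPBP2 (edgeR adjusted p = 0.838 and 0.670), the former turning to 0.048 without B6J.*Gtpbp1*-/- replicate 3. Those of *Rars* were 0.45 ± 0.24 and 0.44 ± 0.22 (edgeR adjusted p = 0.477 and 0.316). Those of *Rars2* were -0.12 ± 0.29 and 0.14 ± 0.25 (edgeR adjusted p = 0.915 and 0.821), and the sign turned without B6J.*Gtpbp1*-/- replicate 3 (0.10) or B6J replicate 1 (0.13) for the former, and without B6J-*Gtpbp2*-/- replicate 1 (-0.019) or B6J replicate 2 (-0.033) for the latter.

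Footprints differed between the mutants for 0 cytosolic and 0 mitochondrial genes by edgeR, where 0% of the 14142 genes tested passed. At an unadjusted p under 0.05 edgeR gave 0 cytosolic and 2 mitochondrial genes (*Hars2* and *Iars2*) and 10.8% of all genes, and DESeq2 called 0 of either group and 0.707% of all genes. The groups did not overlap for 4 of the 36 genes, beside 16.2% of all genes tested. *Hars2* had 23.3, 17.8 and 24.6 footprint CPM in B6J, 18.0, 19.4 and 17.5 in B6J.*Gtpbp1*-/- and 31.4, 25.8 and 21.7 in B6J-*Gtpbp2*-/-. *Iars2*, for isoleucine, had 77.8, 70.0 and 87.8 footprint CPM in B6J, 66.6, 66.6 and 61.8 in B6J.*Gtpbp1*-/- and 90.7, 86.9 and 79.4 in B6J-*Gtpbp2*-/-. Both were lower in the 3 B6J.*Gtpbp1*-/- than in the 3 B6J-*Gtpbp2*-/- libraries (log2 fold change -0.52 ± 0.22 and -0.40 ± 0.17, edgeR adjusted p = 0.425 and 0.4199). *Farsa* had 49.4, 61.4 and 59.3 footprint CPM in B6J, 49.1, 51.0 and 55.6 in B6J.*Gtpbp1*-/- and 61.1, 61.8 and 61.9 in B6J-*Gtpbp2*-/-, the B6J.*Gtpbp1*-/- libraries lying below the B6J-*Gtpbp2*-/- libraries. *Yars2*, for tyrosine, had 20.1, 25.8 and 31.6 footprint CPM in B6J, 31.3, 26.3 and 26.4 in B6J.*Gtpbp1*-/- and 25.6, 20.6 and 23.6 in B6J-*Gtpbp2*-/-, with the B6J.*Gtpbp1*-/- libraries above. The 7 genes called by edgeR for footprints in B6J-*Gtpbp2*-/- mice and not in B6J.*Gtpbp1*-/- mice were among the 36 that did not differ past the threshold. Median log2 fold changes were -0.10 for cytosolic and -0.27 for mitochondrial genes, beside 0.000779 over all genes tested. The cytosolic median was -0.19, -0.049 or -0.15 without B6J.*Gtpbp1*-/- replicate 1, B6J-*Gtpbp2*-/- replicate 1 or B6J-*Gtpbp2*-/- replicate 2, and the mitochondrial median -0.13 without B6J-*Gtpbp2*-/- replicate 2.

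Translational efficiency is the amount of footprints relative to RNA, and its change is the log2 fold change of footprints less that of RNA, tested as the interaction of assay and genotype in 12 libraries. The labels give all RNA libraries as batch 1 and all footprint libraries as batch 2, so batch and assay cannot be told apart. The ratio of footprint CPM to RNA CPM depends on the coding and transcript length of a gene, so it is given for the same genes across genotypes only. Its median over the cytosolic synthetases was 1.47 in B6J, 1.26 in mice without GTPBP1 and 1.397 in mice without GTPBP2. Over the mitochondrial synthetases it was 1.02, 0.848 and 1.10, and over 12852 genes 0.987, 0.995 and 1.00. By edgeR 0 of 36 genes passed in B6J.*Gtpbp1*-/- mice, beside 0% of 13086 genes tested, and 0 of 36 in B6J-*Gtpbp2*-/- mice, beside 0.00773% of 12931. The median change was -0.26 for cytosolic, -0.15 for mitochondrial and 0.034 for all genes in B6J.*Gtpbp1*-/- mice. Without B6J.*Gtpbp1*-/- replicate 3 the cytosolic median was -0.14, and without B6J.*Gtpbp1*-/- replicate 1 it was -0.35. With B6J-*Gtpbp2*-/- mice these medians were -0.028, 0.081 and 0.027. The cytosolic median there was -0.20 without B6J-*Gtpbp2*-/- replicate 1, 0.009 without B6J-*Gtpbp2*-/- replicate 2 and 0.042 without B6J-*Gtpbp2*-/- replicate 3, and -0.11 and -0.0036 without B6J replicates 2 and 3. The mitochondrial median there was 0.032, 0.054 and 0.20 without B6J-*Gtpbp2*-/- replicates 1, 2 and 3.

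At an unadjusted p under 0.05 edgeR gave 3 cytosolic genes (*Cars*, *Gars*, *Mars*) and 2 mitochondrial genes (*Mars2*, *Aars2*) in B6J.*Gtpbp1*-/- mice, all with lower efficiency, beside 8.94% of all genes tested, and 0 cytosolic genes and 1 mitochondrial gene (*Mars2*) in B6J-*Gtpbp2*-/- mice, beside 1554 of 12931 genes. DESeq2 called 1 of the 36 genes in B6J.*Gtpbp1*-/- mice, which was *Cars* (log2 change -0.68, adjusted p = 0.0304, range 0.0304 to 0.928 over the alternatives), 0 mitochondrial genes there and 0 genes in B6J-*Gtpbp2*-/- mice, beside 0.443% and 1.24% of all genes. By p the leading 2 genes were *Mars2* and *Cars* in B6J.*Gtpbp1*-/- mice, with log2 changes of -0.90 ± 0.23 and -0.67 ± 0.18 (edgeR adjusted p = 0.448 and 0.451). In B6J-*Gtpbp2*-/- mice they were *Mars2* and *Farsb*, with -0.66 ± 0.23 and -0.39 ± 0.20 (edgeR adjusted p = 0.288 and 0.454). *Mars2* footprints stood at 20.8, 32.4 and 27.2 CPM in B6J, 18.3, 21.1 and 18.9 in B6J.*Gtpbp1*-/- and 19.2, 26.7 and 20.5 in B6J-*Gtpbp2*-/-. They overlapped between B6J and each mutant, although the RNA of the gene was higher in every mutant library. *Farsb* footprints stood at 74.3, 93.8 and 89.1 CPM in B6J, 125, 94.6 and 68.3 in B6J.*Gtpbp1*-/- and 88.9, 75.04 and 82.7 in B6J-*Gtpbp2*-/-, and these groups overlapped too. For footprints, 0 genes passed by edgeR among the scaffolds, tRNA end maturation and export, tRNA delivery, the other aminoacylation genes and the mitochondrial amidotransferase list in either mutant, while at an unadjusted p under 0.05 there were 3 genes in B6J.*Gtpbp1*-/- mice and 2 genes in B6J-*Gtpbp2*-/- mice, and by DESeq2 1 in each (*Xpot*). For efficiency, 0 of these passed by edgeR, with 1 and 2 at an unadjusted p under 0.05 and 0 by DESeq2. *Xpot* footprints missed the threshold (log2 fold change 0.87 ± 0.20 and 0.66 ± 0.18, edgeR adjusted p = 0.0729 and 0.0663).

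The reference genes of the amino acid response were also read for footprints, where *Ddit3* had 2 identifiers and was counted by the one that had RNA values too. Over all genes tested, footprints of 0.573% were higher in B6J.*Gtpbp1*-/- mice and of 1.28% in B6J-*Gtpbp2*-/- mice. Of the 10 reference genes 8 passed in B6J.*Gtpbp1*-/- mice by edgeR, all higher, and the adjusted p of *Asns*, *Chac1*, *Sesn2* and *Slc7a3* was at most 0.05 under each alternative. The other 4 calls were each lost under an alternative, with the adjusted p in parentheses. *Atf4* was lost without B6J.*Gtpbp1*-/- replicate 1 (0.107), B6J.*Gtpbp1*-/- replicate 3 (0.0615) or B6J replicate 1 (0.156) and with the replicate block (0.0878). *Ddit3* was lost without B6J.*Gtpbp1*-/- replicate 1 (0.146), B6J.*Gtpbp1*-/- replicate 3 (0.0602), B6J replicate 1 (0.206) or B6J replicate 3 (0.0792) and with the replicate block (0.155). *Psat1* was lost without B6J.*Gtpbp1*-/- replicate 1 (0.154), B6J replicate 1 (0.208) or B6J replicate 2 (0.169) and with the replicate block (0.105), and *Shmt2* without B6J replicate 1 (0.0525). In B6J-*Gtpbp2*-/- mice 9 of the 10 passed, all but *Ddit3* (edgeR adjusted p = 0.0624, with DESeq2 0.0223, range 0.0192 to 0.283 over the alternatives), and all were higher. There *Atf4* was lost without B6J-*Gtpbp2*-/- replicate 1 (0.0818), B6J-*Gtpbp2*-/- replicate 3 (0.0537) or B6J replicate 1 (0.0766), *Phgdh* without B6J-*Gtpbp2*-/- replicate 1 (0.0955), B6J-*Gtpbp2*-/- replicate 2 (0.0620), B6J replicate 1 (0.0802) or B6J replicate 2 (0.0587) and *Trib3* without B6J-*Gtpbp2*-/- replicate 1 (0.0736), B6J-*Gtpbp2*-/- replicate 2 (0.0831) or B6J replicate 1 (0.0739). The highest adjusted p over the alternatives among the calls lost was 0.208 (*Psat1*) in B6J.*Gtpbp1*-/- and 0.0955 (*Phgdh*) in B6J-*Gtpbp2*-/- mice.

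The other identifier of *Ddit3*, with footprint values and no RNA values, passed in both mutants. Its footprint log2 fold change was 1.71 ± 0.33 in mice without GTPBP1 (edgeR adjusted p = 0.0332) and 1.44 ± 0.29 in mice without GTPBP2 (edgeR adjusted p = 0.0120). Counted with it, 9 of 11 identifiers passed in B6J.*Gtpbp1*-/- mice and 10 of 11 in B6J-*Gtpbp2*-/- mice. The former call was lost with the replicate block (0.118) and without any single one of B6J.*Gtpbp1*-/- replicates 1 and 3 and B6J replicates 1, 2 and 3 (adjusted p = 0.156, 0.0533, 0.199, 0.102 and 0.0612, range 0.000604 to 0.199 over the alternatives). The latter was lost without B6J-*Gtpbp2*-/- replicate 1 or B6J replicate 1 (adjusted p = 0.0913 and 0.0565, range 0.00104 to 0.0913 over the alternatives).

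Promoter windows of 300 bases, from 250 before to 50 after the gene start, were taken from RefSeq on GRCm38.p6 and matched 27 of the 36 genes by symbol. The unmatched genes were *Cars*, *Hars*, *Lars*, *Nars*, *Rars*, *Vars*, *Wars*, *Hars2* and *Pars2*. Both strands were searched for TGATGNAA, the core shared by elements that bind C/EBP and ATF proteins. It was found in 5 of 13 cytosolic windows (38.5%), in 0 of 14 mitochondrial genes, and in 1304 of all 32851 windows of the same length (3.97%). All 5 were among the 9 matched cytosolic genes whose RNA rose in a mutant, and 0 among the 4 other matched cytosolic genes. These letters are a description of the windows and not a test of binding.

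The 30 bases around a match in each of these 5 genes are printed 5′ to 3′ on the strand of the gene, since they are the members that share the motif, with the match in capitals. In *Yars* the printed match reads along the gene and in the others along the opposite strand. The first base of the printed match lies at 10, -30, 8, -15 and 4 from the gene start, in the order printed. The windows lie at chr8:111033840-111033869 (plus strand), chr6:55037960-55037989 (plus strand), chr13:49682126-49682155 (plus strand), chr15:11399655-11399684 (minus strand) and chr4:129189895-129189924 (plus strand).
*Aars*: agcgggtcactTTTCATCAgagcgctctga
*Gars*: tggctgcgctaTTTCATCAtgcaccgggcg
*Iars*: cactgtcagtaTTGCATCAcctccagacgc
*Tars*: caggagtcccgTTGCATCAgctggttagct
*Yars*: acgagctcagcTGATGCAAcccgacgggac

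Since the *n-Tr20* mutation lowers the tRNA that reads AGA in all 3 genotypes, the AGA codons of the synthetases were counted in the longest coding sequence of each gene. The median was 11.4 AGA codons per 1000 codons over cytosolic and 8.52 over mitochondrial genes, beside 11.2 over 21630 coding genes. The 14 cytosolic genes whose RNA rose had a median of 12.4 and the other 6 of 8.03. Their quartiles overlapped, at 8.415 to 14.13 and 3.96 to 14.19, beside 5.894 to 17.95 over all coding genes. This difference was not tested. *Dars* had the most, 31.9 per 1000, and *Farsa* the fewest, 1.97 per 1000, and neither RNA passed in either mutant. *Rars* itself had 10 AGA codons (15.2 per 1000) and *Rars2* 11 (19.0 per 1000). Every one of the 36 coding sequences had at least 1. No position of a footprint was used here, so occupancy of these codons was not analysed.

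Some members share sequence with other genes, and the RNA kit did not keep the strand, so their counts are less certain. *Aars* (chromosome 8, 111033144 to 111057664 on GRCm38) overlaps *Exosc6* on the same strand over 14.3% of its exon bases. *Iars2* overlaps *Rab3gap2* on the opposite strand over 22.9% of its exon bases and *Farsb* overlaps *Sgpp2* over 9.47%. *Mars* overlaps *Ddit3*, a reference gene of the stress response, by 68 bases, and *Hars* and *Hars2* start head to head with 195 shared bases. *Iars* shares 767 of its 5273 stretches of 31 bases, the length kallisto matches, with the pseudogene *Gm4849*. *Gars*, *Lars*, *Nars*, *Rars* and *Wars* shared 0 such stretches with any other gene.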

How the data were processed

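RNA values were estimated counts and TPM per transcript, which the authors made with kallisto 0.42.4 on the Gencode M20 transcriptome together with the effective length of each transcript, a length and not an abundance. Footprint values were raw counts per gene on coding sequence, which the authors obtained with Bowtie2 2.2.3, HISAT2 2.1.0 and featureCounts on mm10. Estimated counts were summed and rounded by gene. Coding lengths, codons, exon overlaps and shared stretches of sequence were read from a later Gencode release than the one the authors used. Libraries were grouped by genotype from the labels, and pairs of genotypes were compared within 6 libraries of an assay by the edgeR quasi-likelihood test with TMM (edgeR 4.0.16, limma 3.58.1, R 4.3.3), where a gene entered if 3 or more libraries held 5 or more counts, adjusting p over all genes tested by Benjamini-Hochberg. Efficiency was the interaction in 12 libraries, where a gene entered if, for both assays, 3 or more libraries held 10 or more counts, with genes of the prefix Hist removed. Figures were drawn in Python 3.11.15 with matplotlib 3.10.9, from tables made with pandas 2.3.3 and numpy 2.4.6.

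Alternatives were DESeq2 1.42.0, upper quartile scaling, no filter or a mean count of at least 1, TMM within each assay, the replicate number as a block, leaving out each replicate, and for RNA an offset for effective length, protein-coding transcripts alone and sex read from *Ddx3y*. For B6J-*Gtpbp2*-/- against B6J mice the only male RNA library was B6J replicate 2. There sex as a covariate amounts to leaving that library out and is not a separate check. The members and lists were chosen with earlier results of these data known. Values in every library were given for *Rars*, *Rars2*, *Gars* and *Kars*, for the 6 cytosolic and 3 mitochondrial members with the smallest p for RNA in each mutant, the 4 members with the smallest p for footprints and the 2 for efficiency, and the members whose mutant groups did not overlap. Values of other named members were added after they were seen. Identity of cytosolic and mitochondrial proteins was not analysed here. Some genes and sequences are not reported here.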

Additional observations from a re-analysis of the deposited data

How the results depend on the processing

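Among members called for RNA against B6J, 93 of 96 values in B6J.*Gtpbp1*-/- and 74 of 78 in B6J-*Gtpbp2*-/- mice were past the threshold under the other settings, the replicate block aside, and 85 of 96 and 68 of 78 without 1 library. For footprints the figures were 12 of 12 and 9 of 24 in B6J.*Gtpbp1*-/- and 33 of 33 and 53 of 66 in B6J-*Gtpbp2*-/- mice, and 0 of these values changed sign. The count of 2 mitochondrial genes called for RNA in B6J.*Gtpbp1*-/- mice was 0 with an offset for transcript length and 0 to 2 without 1 library. The count of 1 in B6J-*Gtpbp2*-/- mice, in either direction, was 2 with DESeq2, 3 over protein-coding transcripts, 0 with the length offset, 0 with sex as a covariate and 0 to 2 without 1 library. With DESeq2 and over protein-coding transcripts the genes called included *Aars2*, which was lower (log2 fold change -0.31 and -0.34). The 4 cytosolic genes called for footprints in B6J.*Gtpbp1*-/- mice became 10 with DESeq2, 8 with no filter and 0 to 8 without 1 library, and the 11 in B6J-*Gtpbp2*-/- mice 4 to 11 without 1 library. The 0 cytosolic genes called for efficiency in B6J.*Gtpbp1*-/- mice became 1 with DESeq2. The replicate numbers did not pair the libraries, since r between same-numbered libraries, after the group means were removed, ran from -0.28 to 0.24, and with the replicate block the mitochondrial count for RNA in B6J.*Gtpbp1*-/- mice was 1 and the cytosolic count for footprints there 0. With the block 15 of 16 RNA calls in B6J.*Gtpbp1*-/- mice were past the threshold, and 12 of 13 RNA and 11 of 11 footprint calls in B6J-*Gtpbp2*-/- mice.

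Directions turned for the RNA of *Gtpbp2* in B6J-*Gtpbp2*-/- mice with the length offset (0.32) and for *Hars2* between the mutants over protein-coding transcripts (0.021). Without 1 library the log2 fold change ran from -0.013 to 0.16 for *Kars* RNA in B6J-*Gtpbp2*-/- mice, -0.40 to 0.048 for *Kars* footprints in B6J.*Gtpbp1*-/- mice, and for *Rars2* footprints from -0.30 to 0.13 with B6J.*Gtpbp1*-/- and from -0.033 to 0.39 with B6J-*Gtpbp2*-/- mice. The median of the cytosolic genes was 0.88 for RNA in B6J.*Gtpbp1*-/- mice without B6J.*Gtpbp1*-/- replicate 3 and 0.90 over protein-coding transcripts, that of the mitochondrial genes was 0.073 with upper quartile scaling and turned to -0.014 without B6J replicate 3 and -0.0075 with the length offset, and for efficiency in B6J-*Gtpbp2*-/- mice the cytosolic median was -0.20 without B6J-*Gtpbp2*-/- replicate 1. The mitochondrial median of footprints in B6J-*Gtpbp2*-/- mice turned to -0.026 and -0.025 without B6J-*Gtpbp2*-/- replicates 1 and 2. For each of these the cause was not tested. Footprint depth was lowest at 3630823 counts, and mean footprint counts were under 50 for *Ears2*, *Pars2* and *Wars2*. What depth allows to detect in them was not tested.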
